A study of Homo sapiens with 12 samples.

Results

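The genes described here are 10 genes of the unfolded protein response of the endoplasmic reticulum: HSPA5, HSP90B1, DNAJB9, PDIA4, SDF2L1, ERO1L, HERPUD1, ERN1, EIF2AK3 and XBP1. They were chosen by name, and the FPKM (fragments per kilobase of transcript, scaled to the mapped fragments of the library) of every assembled transcript that carried the name and either matched a reference transcript or shared a junction with one was summed per gene and library. All 10 were found, on 85 of the 293768 transcript models, among 56537 gene names, and all 10 were among the 16680 names that passed a filter on low values (FPKM above 0.5 in at least 3 libraries). The samples were 12 cultures of HCT116, an established human colorectal cancer cell line. Cells at 0 h were in the ordinary culture atmosphere, taken here as 21% oxygen. The others were held in 1% oxygen for 1, 2 or 24 h, beginning 24 h after plating. There were 3 libraries at each time. The groups carried no other treatment or genetic change, and no separate culture in 21% oxygen was labelled for the later times, so that hours in low oxygen and hours in culture cannot be told apart. The series describes the replicates as biological, without saying more about how the cultures were separated.

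The lumen of the endoplasmic reticulum is where secreted and membrane proteins fold, gain their disulfide bonds and are sorted for export or destruction. When unfolded proteins gather there, 3 membrane sensors respond: IRE1 (encoded by ERN1), PERK (EIF2AK3) and ATF6. IRE1 cuts a short intron out of XBP1 mRNA in the cytoplasm, which shifts the reading frame and yields an active transcription factor. PERK phosphorylates the initiation factor eIF2 alpha and slows translation, while ATF6 is cleaved in the Golgi and enters the nucleus. Classical targets of the pathway are chaperones such as BiP (HSPA5) and GRP94 (HSP90B1), and components of the route that carries misfolded proteins out for degradation by the proteasome, called ER-associated degradation. Low oxygen also bears on this compartment, because the oxidase ERO1 alpha (ERO1L) passes electrons from thiols to molecular oxygen, and its gene is known as a target of the hypoxia-inducible factors.

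The promoters of these genes hold known binding motifs, and a few of them are shown because they hold the letters known as sites of ATF6 and XBP1 or of the hypoxia-inducible factors. RefSeq promoter windows of 300 bases (250 before and 50 after each start, GRCh38.p14) were matched for all 10 genes, ERO1L under its current symbol ERO1A, with 2 windows each for PDIA4 and XBP1. Both strands were searched. The ER stress response element (ERSE, CCAAT, any 9 bases, then CCACG) was found in 3 of the 10 genes, against 0.0769% of 35097 windows of the same length. Its shorter relative ERSE-II (ATTGG, 1 base, CCACG) was found in 2, against 0.0541%. In the sites below, capitals mark the fixed bases of the motif, and the sequence is read along the gene's strand, so that an element in the opposite orientation appears as its reverse complement.
HSPA5, ERSE at chr9:125241391-125241409, minus strand: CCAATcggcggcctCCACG
HSP90B1, ERSE at chr12:103930216-103930234, plus strand: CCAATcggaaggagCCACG
HSP90B1, ERSE in the opposite orientation at chr12:103930321-103930339, plus strand: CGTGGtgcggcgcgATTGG
XBP1, ERSE at chr22:28800603-28800621, minus strand: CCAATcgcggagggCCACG
HERPUD1, ERSE-II at chr16:56932025-56932035, plus strand: ATTGGgCCACG
SDF2L1, ERSE-II in the opposite orientation at chr22:21642114-21642124, plus strand: CGTGGaCCAAT

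The letters TGACGTGG (the UPRE) and TGATG, 1 base, AAT (the CARE of ATF4 targets) were in no window of the members, against 0.729% and 0.992% of all windows. The core letters of a hypoxia-inducible factor site, ACGTG or GCGTG, were in 9 of the 10 genes, HSPA5 being the exception, but they were also in 48.4% of all windows. Some of these cores overlap the elements above, at HSP90B1, HERPUD1 and SDF2L1. The windows of SDF2L1 and ERO1L are shown in full, because these were the only members whose level passed both thresholds at 24 h. Capitals mark the ERSE-II in SDF2L1 and the 3 hypoxia-inducible factor cores in ERO1L. A match of letters describes the sequence and is not evidence of binding.
SDF2L1, chr22:21642052-21642351, plus strand: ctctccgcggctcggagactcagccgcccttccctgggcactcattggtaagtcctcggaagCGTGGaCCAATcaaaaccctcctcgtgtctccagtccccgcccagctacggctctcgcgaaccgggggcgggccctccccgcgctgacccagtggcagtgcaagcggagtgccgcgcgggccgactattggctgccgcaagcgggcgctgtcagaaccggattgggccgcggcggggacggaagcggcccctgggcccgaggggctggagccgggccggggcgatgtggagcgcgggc
ERO1L, chr14:52695509-52695808, minus strand: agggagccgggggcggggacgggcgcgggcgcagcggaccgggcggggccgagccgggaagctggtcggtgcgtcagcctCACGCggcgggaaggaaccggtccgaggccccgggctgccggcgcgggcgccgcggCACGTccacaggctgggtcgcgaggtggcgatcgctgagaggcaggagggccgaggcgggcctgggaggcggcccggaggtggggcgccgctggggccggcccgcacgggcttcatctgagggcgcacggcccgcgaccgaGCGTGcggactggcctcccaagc

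At 24 h the oxidase gene ERO1L rose 3.37-fold and the chaperone-associated gene SDF2L1 fell to 0.42 times its 0 h level, while the main chaperones of the compartment, HSPA5, HSP90B1 and PDIA4, did not pass the test in either direction. A gene was called when its fold change exceeded 2 and its adjusted p was under 0.01 by limma on log2(FPKM + 0.5), with Benjamini-Hochberg adjustment over all 16680 names. Of the 10 genes, 1 was called higher and 1 lower at 24 h against 0 h, where 8.76% of all names were called higher and 9.51% lower. At an adjusted p under 0.05 alone, 4 members were higher (ERO1L, EIF2AK3, DNAJB9 and ERN1) and 1 lower (SDF2L1), against 25% and 30.3% of all names. With each library scaled to a common sum over all models (TPM), which put the median of all names at -0.78, these counts were 0 higher and 2 lower, against 2.68% and 44.6% of all names. With TPM over models of at least 300 bases they were 3 and 1, against 20.2% and 31.9%, ERN1 being lost (adjusted p = 0.098 by limma). As deposited, the median log2 change over the 10 genes was 0.40, against -0.05 over all names. With TPM it was -0.44, against -0.78. In RNA from whole cultures, fewer cells with a transcript and less of it per cell cannot be told apart.

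No member was called at 1 h or 2 h. Over all names, 0.006% were called higher and 0% lower at 1 h, and 0.018% and 0% at 2 h. At an unadjusted p under 0.05, limma gave 0 members at 1 h and 3 at 2 h (DNAJB9, EIF2AK3 and XBP1), against 4.61% and 15.3% of all names. As deposited, none of these held after adjustment. With TPM, 5 members (HSPA5, PDIA4, SDF2L1, HERPUD1 and XBP1) were lower at 2 h at an adjusted p under 0.05. This was so for 61.4% of all names, whose median was then -0.94. At 2 h the libraries lay fully above those of 0 h for DNAJB9, ERO1L, EIF2AK3 and ERN1, and fully below for XBP1 and HSPA5. At 1 h they lay fully above for HSP90B1. The share of all names separated in this way was computed only for 24 h against 0 h. Separations between other times are therefore given as values and not as results about the members. Against 2 h, ERO1L was called higher and SDF2L1 lower at 24 h, where 7.44% and 7.28% of all names were called.

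**Figure D1:**
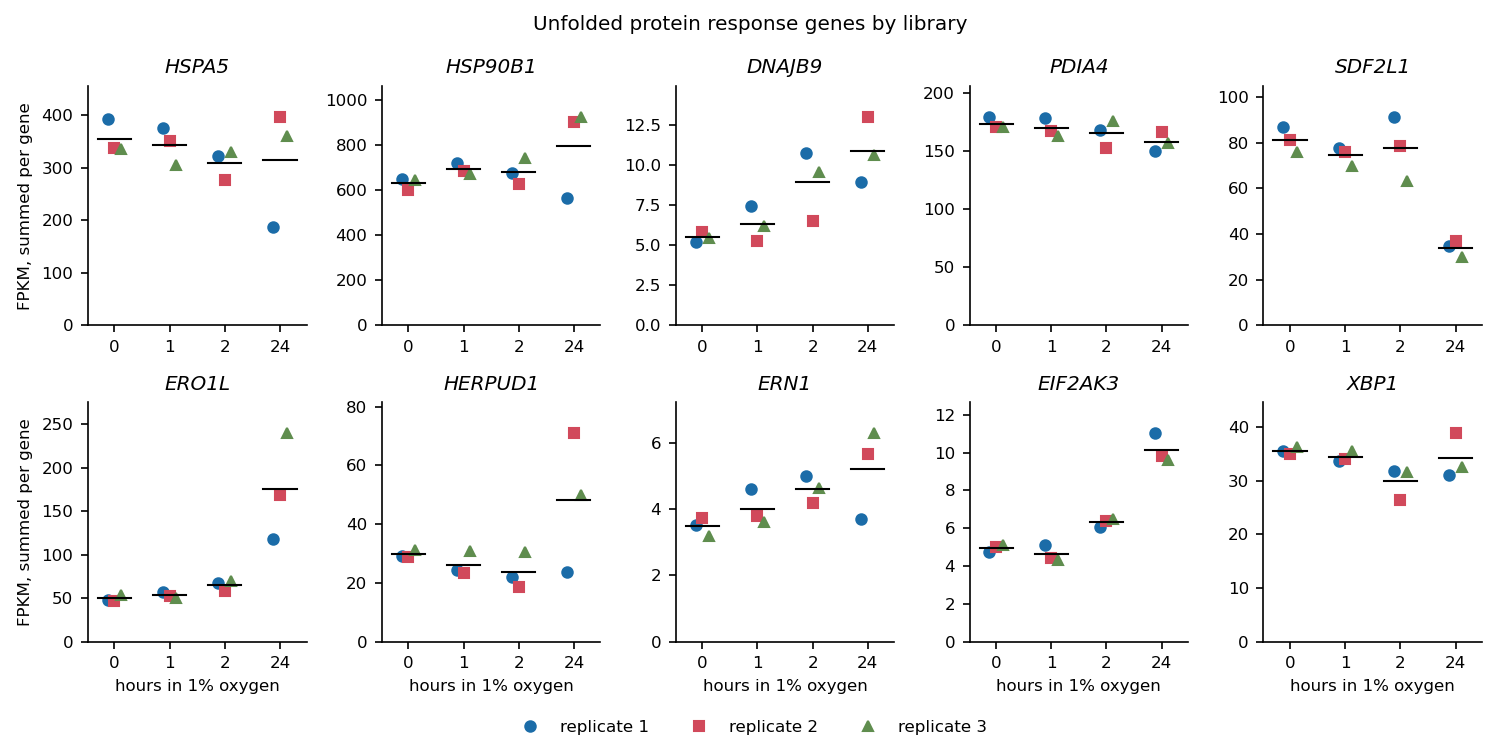
FPKM summed per gene (vertical axis, from 0) against hours in 1% oxygen for the 10 genes, with 1 symbol per library and a line at the mean of 3 libraries. ERO1L, EIF2AK3 and DNAJB9 lie above all 0 h libraries at 24 h, SDF2L1 lies below, and in HSPA5, HSP90B1 and HERPUD1 replicate 1 stands apart from the other 24 h libraries.

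**Figure D2:**
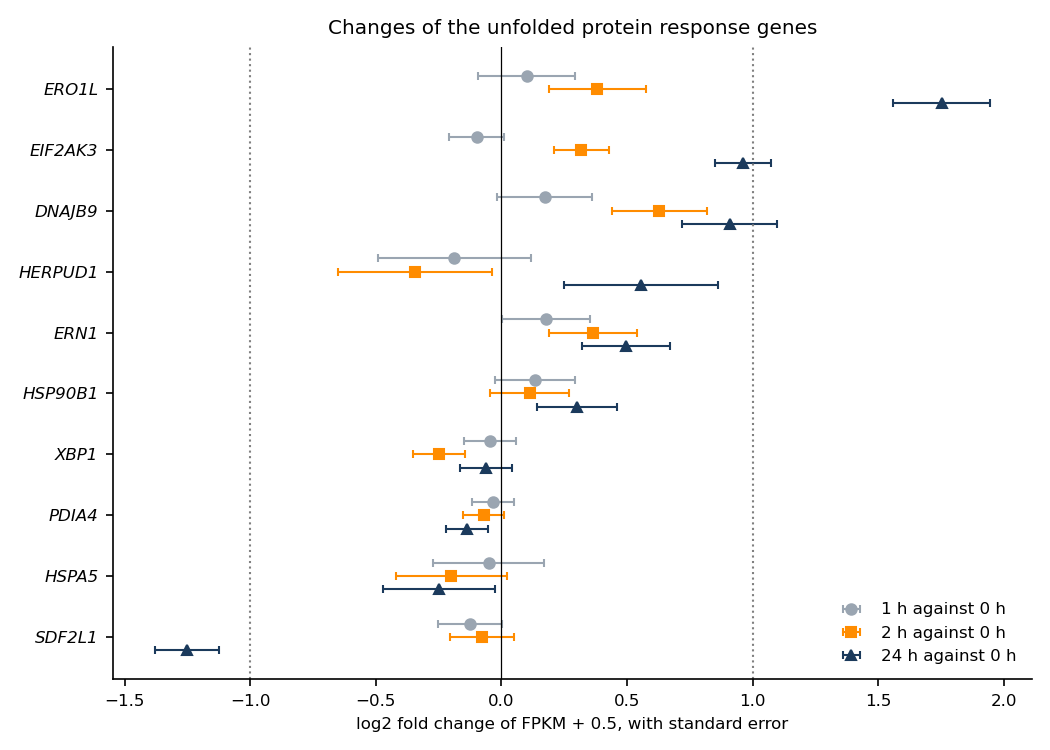
Log2 fold change of FPKM + 0.5 against 0 h (horizontal axis, with the standard error from limma) for each gene at 1, 2 and 24 h, where dotted lines mark a change of 1 in either direction. The 24 h values of ERO1L (1.75) and SDF2L1 (-1.25) lie beyond the lines, and all values at 1 h and 2 h lie inside them.

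HSP90B1 and HSPA5 had the highest levels per length of the group. HSPA5 encodes BiP, the Hsp70 chaperone that binds exposed hydrophobic stretches and holds the 3 sensors inactive (hg19, chr9:127997132-128003609). Its FPKM was 393, 337 and 336 in the 3 libraries at 0 h, 375, 349.8 and 305 at 1 h, 321, 277 and 329.6 at 2 h, and 186, 396 and 359 at 24 h. The 24 h libraries straddled those of every other time, with replicate 1 the lowest of all 12 and replicate 2 the highest. The log2 change at 24 h was -0.25 ± 0.22 (SE), with an adjusted p of 0.36 by limma, and without 24 h replicate 1 it was 0.09, with an adjusted p of 0.56.

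HSP90B1 encodes GRP94, the Hsp90 chaperone of the same compartment (locus chr12:104235229-104359486, which also holds MIR3652). Its FPKM was 647, 600.0 and 642 at 0 h, 721, 682 and 671 at 1 h, 674, 628 and 743 at 2 h, and 563, 899 and 922 at 24 h. The 24 h libraries overlapped those of 0 h only through replicate 1, which was the lowest of all 12. The log2 change at 24 h was 0.30 ± 0.16 (SE), with an adjusted p of 0.13 by limma. Without 24 h replicate 1 it was 0.53, with an adjusted p of 0.00084, still under the threshold on size.

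PDIA4 (ERp72) is a disulfide isomerase, which forms and reshuffles disulfide bonds in folding proteins (locus chr7:148700154-148880394). Its FPKM was 179, 170.5 and 171 at 0 h, 178, 167 and 163 at 1 h, 168, 152 and 175 at 2 h, and 149.8, 167 and 157 at 24 h. All 24 h libraries lay just below all 0 h libraries, a separation shared by 32.8% of all names. The log2 change of -0.14 ± 0.08 (SE) had an adjusted p of 0.18 by limma. Summed only over models that matched a reference transcript, it was -0.54, with an adjusted p of 0.0036.

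DNAJB9 (ERdj4) is a J-domain co-chaperone of BiP that is known to assist degradation of misfolded proteins and to restrain IRE1 (locus chr7:108110564-108215294). Its FPKM was 5.19, 5.85 and 5.44 at 0 h, 7.44, 5.29 and 6.17 at 1 h, 10.7, 6.51 and 9.56 at 2 h, and 8.94, 13.0 and 10.6 at 24 h. Every library of 2 h and of 24 h exceeded every library of 0 h. The log2 change was 0.63 ± 0.19 (SE) at 2 h, with an adjusted p of 0.18, and 0.91 ± 0.19 at 24 h, with an adjusted p of 0.0015 by limma, short of the 2-fold threshold. Without 24 h replicate 1 the change was 1.03 and passed both thresholds (adjusted p = 0.0014 by limma). With TPM and all libraries it was 0.09 (adjusted p = 0.86 by limma), or 0.87 relative to the median of all names.

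SDF2L1 belongs to a complex with BiP co-chaperones that keeps unfolded proteins soluble (chr22:21996550-21998587). Its FPKM was 87.0, 81.1 and 75.9 at 0 h, 77.8, 76.0 and 69.9 at 1 h, 91.1, 78.6 and 63.4 at 2 h, and 34.9, 36.8 and 30.0 at 24 h. The highest 24 h library lay far below the lowest library of any earlier time. The log2 change at 24 h was -1.25 ± 0.13 (SE), with an adjusted p of 7.8e-06 by limma, and all 3 libraries were lower than each at 0 h. DNAJB9, also a gene of the BiP system, had a change of the opposite sign.

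ERO1L encodes ERO1 alpha, the oxidase that recharges protein disulfide isomerase (locus chr14:52884259-53162721). Its FPKM was 47.9, 47.1 and 54.1 at 0 h, 57.5, 52.0 and 50.3 at 1 h, 67.4, 57.8 and 69.9 at 2 h, and 118, 168 and 239.6 at 24 h. All libraries of 2 h lay above all of 0 h, and all of 24 h above all others, with a spread at 24 h (SD 61.0) far wider than at 0 h (SD 3.81). The log2 change was 0.38 ± 0.19 (SE) at 2 h, with an adjusted p of 0.37, and 1.75 ± 0.19 at 24 h, with an adjusted p of 1.4e-05 by limma. At 0 h its mean FPKM of 49.7 was below those of PDIA4 (173) and SDF2L1 (81.3). At 24 h its libraries overlapped those of PDIA4 and lay above those of SDF2L1.

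HERPUD1 encodes a membrane protein of the retrotranslocation machinery and a strong target of the pathway (chr16:56965960-56977801). Its FPKM was 29.1, 28.8 and 31.2 at 0 h, 24.3, 23.5 and 30.8 at 1 h, 21.9, 18.7 and 30.6 at 2 h, and 23.7, 70.9 and 49.8 at 24 h. In 24 h replicate 1 it was below every 0 h library, and in the other 2 it was above all other libraries of the series. The log2 change of 0.55 ± 0.31 (SE) against 0 h had an adjusted p of 0.14 by limma, and that of 0.90 against 2 h one of 0.027. Without 24 h replicate 1 these became 0.99, with an adjusted p of 0.0020, and 1.34, with an adjusted p of 0.00036, and the latter passed both thresholds.

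EIF2AK3 encodes PERK, the kinase that phosphorylates eIF2 alpha (locus chr2:88838238-88931339). Its FPKM was 4.77, 4.99 and 5.13 at 0 h, 5.09, 4.42 and 4.32 at 1 h, 6.09, 6.37 and 6.49 at 2 h, and 11.0, 9.85 and 9.59 at 24 h. The libraries of 2 h lay above all of 0 h and 1 h, and those of 24 h above all of 2 h. The log2 change was 0.32 ± 0.11 (SE) at 2 h, with an adjusted p of 0.22, and 0.96 ± 0.11 at 24 h, with an adjusted p of 1.9e-05 by limma, just under the 2-fold threshold. With a pseudocount of 0.1 it was 1.02 at 24 h and passed both thresholds. With TPM it was 0.15 (adjusted p = 0.75 by limma), or 0.93 relative to the median of all names.

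ERN1 encodes IRE1 alpha, the kinase and nuclease that starts XBP1 splicing (chr17:62116502-62208179). Its FPKM was 3.52, 3.73 and 3.18 at 0 h, 4.60, 3.80 and 3.62 at 1 h, 5.02, 4.20 and 4.65 at 2 h, and 3.71, 5.67 and 6.29 at 24 h. Replicates 2 and 3 at 24 h were the highest libraries of the series, and replicate 1 lay within the range of 0 h. The log2 change at 24 h was 0.50 ± 0.18 (SE), with an adjusted p of 0.029 by limma.

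XBP1, the transcription factor that IRE1 activates, varied little (chr22:29190543-29196646). Its FPKM was 35.5, 35.0 and 36.2 at 0 h, 33.7, 34.1 and 35.5 at 1 h, 31.9, 26.4 and 31.7 at 2 h, and 31.2, 38.9 and 32.6 at 24 h. All libraries of 2 h lay below all of 0 h, by -0.25 ± 0.10 on the log2 scale (adjusted p = 0.29 by limma), and the 24 h libraries lay on both sides of those of 0 h. Across the group, the libraries of 24 h were all above those of 0 h for 3 genes (ERO1L, DNAJB9 and EIF2AK3) and all below for 2 (SDF2L1 and PDIA4), against 27.6% and 32.8% of all names.

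The order of the levels per length changed in its middle part. Mean FPKM at 0 h was 630 for HSP90B1, 355 for HSPA5, 173 for PDIA4, 81.3 for SDF2L1, 49.7 for ERO1L, 35.6 for XBP1, 29.7 for HERPUD1, 5.49 for DNAJB9, 4.97 for EIF2AK3 and 3.48 for ERN1, and no neighbours in this order overlapped between libraries. At 24 h the means were 795 for HSP90B1, 314 for HSPA5, 175 for ERO1L, 158 for PDIA4, 48.1 for HERPUD1, 34.2 for XBP1, 33.9 for SDF2L1, 10.9 for DNAJB9, 10.2 for EIF2AK3 and 5.22 for ERN1. At that time the libraries of ERO1L overlapped those of both HSPA5 and PDIA4, and those of HERPUD1, XBP1 and SDF2L1, and those of DNAJB9 and EIF2AK3, overlapped as well.

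The 24 h libraries differed among themselves in these genes. Replicate 1 was the lowest of the 3 for 8 of the 10 members, SDF2L1 and EIF2AK3 being the exceptions, where 32% of all names were lowest in that library. The geometric mean of the other 2 libraries exceeded it 2.47-fold for HERPUD1, 2.02-fold for HSPA5, 1.70-fold for ERO1L, 1.62-fold for HSP90B1 and 1.54-fold for ERN1, on the FPKM + 0.5 scale. The same library was the lowest for 11 of 12 genes of the ATF6 and PERK arms. Among these DDIT3, the stress-induced transcription factor CHOP, was chosen for mention after its values were seen, with 6.90, 43.9 and 19.8 FPKM at 24 h and 10.6, 14.8 and 13.5 at 0 h. Over the other 5 lists replicate 1 was lowest for 20 of 58 genes, from 0 of 6 partners of IRE1, 2 of 8 genes of disulfide formation and 5 of 15 of translocation to 6 of 15 chaperone genes and 7 of 14 of ER-associated degradation. Without it, 7 members in place of 5 had an adjusted p under 0.05 at 24 h (6 higher, 1 lower), HSP90B1 and HERPUD1 being added, against 23.6% higher and 30.0% lower of all names. The median log2 change without it was 0.62 over the 10 and -0.07 over all names.

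**Figure D3:**
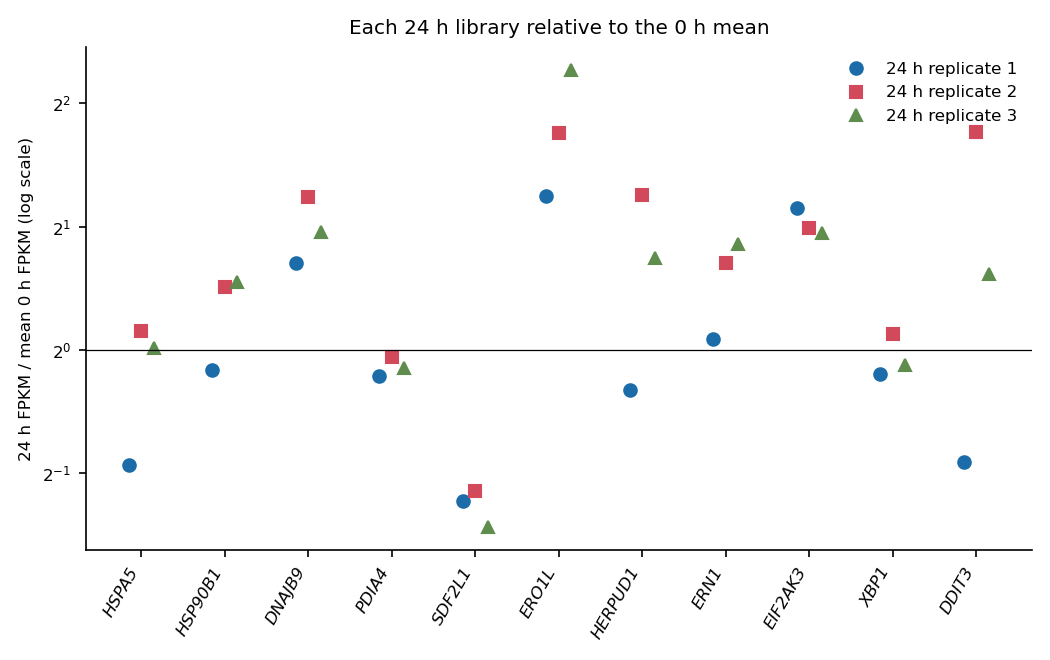
FPKM of each 24 h library divided by the mean of the 0 h libraries (vertical axis, log scale, 1 marked by a line) for the 10 genes and DDIT3. Replicate 1 is the lowest symbol for 8 of the 10 members and for DDIT3, whereas the 3 libraries lie close together for SDF2L1, EIF2AK3 and PDIA4.

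A further 72 genes of the compartment were listed by function, of which 70 passed the filter on low values (DERL3 and GPX7 did not). At 24 h, 3 of the 70 were called higher and 4 lower, against 8.76% and 9.51% of all names, and at an adjusted p under 0.05 alone 15 were higher and 33 lower, against 25% and 30.3%. Their median log2 change was -0.28. With TPM 1 was higher and 39 lower at that adjusted p, against 2.68% and 44.6% of all names. The higher gene was among those of disulfide formation, and no other list had any. The median of the 70 was then -1.10, against -0.78 over all names. None was called at 1 h or 2 h, where limma gave 1 and 10 of the 70 an unadjusted p under 0.05, shares no larger than those over all names. Scaling each library by its median ratio to the others left 3 higher and 3 lower, DNAJC10 being lost, whereas TPM gave 0 higher and 21 lower, so that no rise described in the following groups was called on that scale.

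The genes of disulfide formation held 2 of the 3 rises. Of 8 tested, QSOX1 and VKORC1 were called higher and GPX8 lower. QSOX1, a sulfhydryl oxidase of the secretory pathway, had 22.5, 19.8 and 20.4 FPKM at 0 h and 83.8, 81.9 and 99.4 at 24 h, a log2 change of 2.05 ± 0.10 (SE). VKORC1, the vitamin K epoxide reductase that can also pass electrons from thiol proteins, had 41.0, 37.9 and 40.6 at 0 h and 118, 114 and 108 at 24 h, a log2 change of 1.50 ± 0.09 (SE). Both sets of libraries were fully apart, with adjusted p of 6.7e-08 and 1.8e-07 by limma. GPX8, a peroxidase known to use the peroxide that ERO1 alpha makes, fell by 1.25 on the log2 scale, from 44.6, 33.5 and 40.7 to 14.6, 18.0 and 16.2 FPKM (adjusted p = 7.8e-06 by limma). ERO1LB, the second ERO1 oxidase, was at 0.93 with an adjusted p of 0.00084, short of the 2-fold threshold, and is named after its value was seen.

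Of 14 tested genes of ER-associated degradation, EDEM1 alone was called, and it rose. It encodes a lectin-like protein that directs misfolded glycoproteins to destruction, and its FPKM went from 3.05, 3.04 and 3.68 to 8.34, 9.43 and 12.3, a log2 change of 1.47 ± 0.17 (SE, adjusted p = 1.9e-05 by limma). At an adjusted p under 0.05 alone 6 of the 14 were higher and 4 lower, against 25% and 30.3% of all names. The median log2 change was 0.00. Among those named after their values were seen, SYVN1 (the ubiquitin ligase HRD1, 0.55) and its partner SEL1L (0.52) were higher, and VCP, the ATPase that extracts substrates from the membrane (-0.79), and its cofactors UFD1L (-0.73) and NPLOC4 (-0.58) were lower.

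Of 15 chaperone and folding genes, DNAJC10 alone was called, and it fell by 1.02 on the log2 scale (adjusted p = 0.0049 by limma). This gene encodes a reductase with a J domain, and its FPKM was 55.1, 39.3 and 36.2 at 0 h and 22.7, 20.2 and 19.8 at 24 h. At an adjusted p under 0.05 alone 9 of the 15 were lower and 1 higher, against 30.3% and 25% of all names. The median log2 change was -0.34. CRELD2 (-0.95), calreticulin (CALR, -0.75) and HYOU1, an exchange factor for BiP (-0.73), were among the lower ones, and P4HB, which encodes protein disulfide isomerase itself, was the higher one (0.54), all named after their values were seen. The count without 24 h replicate 1 was also 9 lower and 1 higher, against 30.0% and 23.6% of all names. DNAJC10 then had an adjusted p of 0.010 by limma and was no longer called.

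Of 15 genes of protein translocation and signal peptide removal, SEC11C, a catalytic subunit of signal peptidase, alone was called. It fell by 1.54 on the log2 scale, from 98.1, 89.3 and 64.8 to 30.1, 34.1 and 21.9 FPKM (adjusted p = 2.6e-05 by limma). At an adjusted p under 0.05 alone 11 of the 15 were lower and 2 higher, against 30.3% and 25% of all names. The median log2 change was -0.42. These counts were the same without 24 h replicate 1, against 30.0% and 23.6% of all names. SEC61G, the smallest subunit of the translocon, went the other way from the subunits SEC61A1 (-0.64) and SEC61B (-0.54), at 0.87 with an adjusted p of 1.6e-05 by limma, and is named after its value was seen.

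Of 12 genes of the ATF6 and PERK arms, EIF2S1 alone was called. It encodes eIF2 alpha, the substrate of PERK, and fell by 1.26 on the log2 scale, from 405, 375 and 335 to 149, 162 and 152 FPKM (adjusted p = 4.9e-06 by limma), while EIF2AK3 was higher. At an adjusted p under 0.05 alone 1 of the 12 was higher (ATF3, 0.87) and 4 lower, against 25% and 30.3% of all names. Among the lower were ATF6 itself (-0.35) and TRIB3, a target of CHOP (-0.83). Without 24 h replicate 1 ATF3 was also called, at 1.04. At an adjusted p under 0.05 alone 4 were then higher, against 23.6% of all names. DDIT3 had a log2 change of 0.50 ± 0.55 (SE, adjusted p = 0.46 by limma), and 1.17 without that library (adjusted p = 0.050).

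None of 6 partners of IRE1 was called with all libraries, and limma gave 5 of them an unadjusted p under 0.05, where 60% of all names had one. The largest change was that of TRAF2, the adaptor that links IRE1 to kinase signalling, at -0.95 (adjusted p = 0.00023 by limma), and without 24 h replicate 1 it was called, at -1.02. RTCB, the ligase that joins the exons of XBP1, was at -0.69 (adjusted p = 0.00011) and is named after its value was seen. The 6 split into 2 higher and 3 lower at an adjusted p under 0.05 alone, against 25% and 30.3% of all names. Without 24 h replicate 1 they split into 1 and 3, against 23.6% and 30.0%. With TPM over models of at least 300 bases they split into 0 and 3, against 20.2% and 31.9%.

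**Figure D4:**
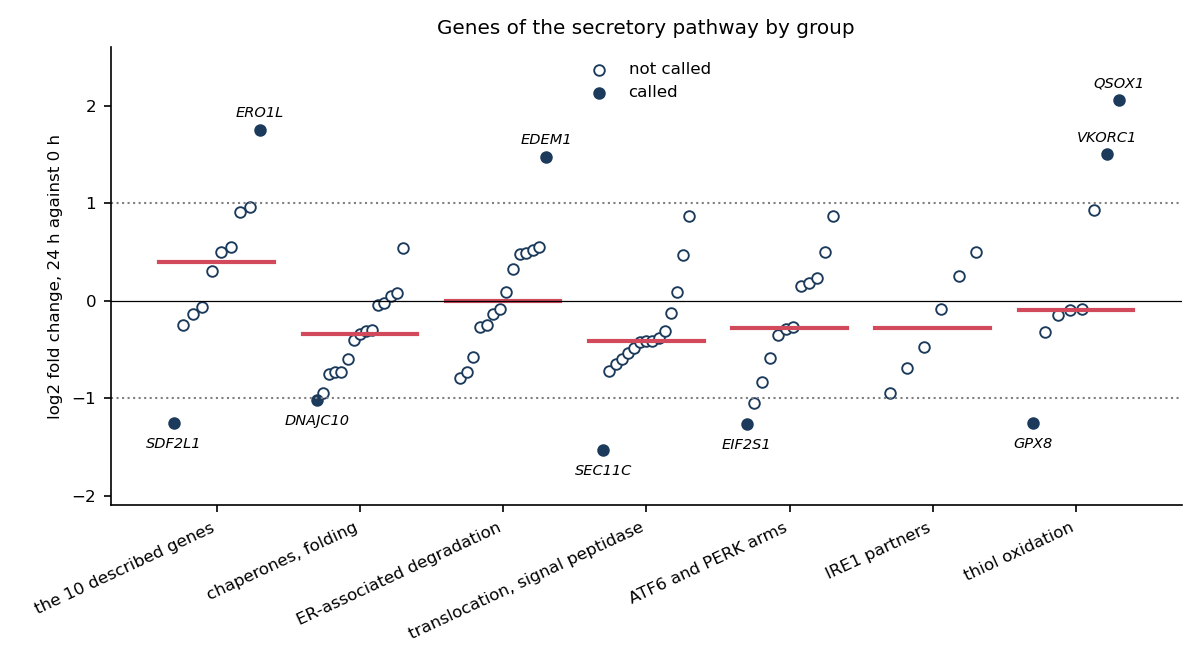
Log2 fold change at 24 h against 0 h (vertical axis) of every tested gene in the 7 groups, with filled symbols for genes past both thresholds, red lines at the group medians and dotted lines at a change of 1. Called genes are ERO1L, EDEM1, QSOX1 and VKORC1 above the upper line and SDF2L1, DNAJC10, SEC11C, EIF2S1 and GPX8 below the lower one.

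The activity of IRE1 can be read in part from XBP1 mRNA, since the cut removes 26 bases from it. The place is given with the 26 bases in capitals and 12 bases on each side, from GENCODE transcript ENST00000216037 in GRCh37, followed by the same stretch of the spliced form (ENST00000344347). It lies in a coding exon, and because the same bases begin the intron and the stretch after it, the annotated position could be shifted by a few bases with the same product.
XBP1 unspliced, chr22:29192104-29192153, minus strand: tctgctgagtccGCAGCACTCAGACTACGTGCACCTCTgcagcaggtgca
XBP1 spliced: tctgctgagtccgcagcaggtgca

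The spliced form was represented by 2 models, of 1885 and 1131 bases, the latter equal to the coding length of the annotated transcript with its stop codon. Neither reached an FPKM of 0.5 in 3 libraries, and no test was made. Their summed FPKM was 0.00065, 0.0026 and 0.30 at 0 h, 0.42, 0 and 0.91 at 1 h, 0.20, 0.063 and 0.23 at 2 h, and 0.56, 2.58 and 0.00065 at 24 h. The highest and nearly the lowest of these values were both at 24 h, and the groups overlapped. As a share of XBP1 the spliced form was at most 6.64%, in 24 h replicate 2. The unspliced model of 1850 bases made up 96.8% ± 0.97 (SD, n = 3) of XBP1 at 0 h and 93.5% ± 3.59 at 24 h. FPKM of forms that differ by 26 bases rest on few fragments, and the files give no counts behind them. The authors aligned the reads with Mapsplice at default settings, and whether reads across this gap were placed there was not tested. These shares therefore cannot be read as the amount of XBP1 that was spliced.

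Of the 85 models of the members, 35 passed the filter on low values. Usage, the log2 ratio of a transcript to its gene, was tested at 24 h against 0 h by limma with adjustment over 57084 transcripts, of which 11.4% had an adjusted p under 0.05. This was so for 5 of 33 tested transcripts of the members (15.2%), of which 1 to 3 kept the call when any single library of 0 h or 24 h was left out. One was a model of ERN1 of 2068 bases (nearest reference ENST00000606895, which GENCODE places in the 5′ part of the gene at chr17:62203463-62208179 and types as protein coding). Its share of ERN1 was 29.7%, 28.9% and 28.7% at 0 h and 18.6%, 18.3% and 17.6% at 24 h, with no overlap and a spread under 1 point in each group (adjusted p = 0.024 by limma). The adjusted p was over 0.05 when any of 4 single libraries was left out, and rose to 0.080 without 0 h replicate 2 and to 0.23 with diffSplice, which uses 1 variance per gene.

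PDIA4 had 2 main models with the same nearest reference (ENST00000286091). The one that matched it, of 2903 bases, made up 62.2%, 73.9% and 77.4% at 0 h and 53.9%, 62.2% and 45.5% at 24 h (adjusted p = 0.043 by limma, 0.13 without 0 h replicate 3, 0.060 with the replicate number as a block, and 0.29 with diffSplice). The other, a model of 2927 bases that was assembled with a junction of its own, went from 27.7% ± 7.87 (SD, n = 3) to 45.0% ± 8.51, with an adjusted p of 0.065. The groups touched for the first model, and the summed level of PDIA4 did not pass the test.

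A minor model of HERPUD1 (ENST00000379792, 1782 bases, protein coding) held 3.65%, 2.78% and 3.13% of the gene at 0 h, and at 24 h it was listed at 0 in 2 libraries and at 0.0025% in the other (adjusted p = 0.018 by limma, 0.059 without 0 h replicate 1 and 0.063 without 24 h replicate 2). HSP90B1 had 2 such minor models, a retained-intron form (ENST00000548622) that went from 0.094% ± 0.015 to 0.29% ± 0.050 of the gene (SD, n = 3, adjusted p = 0.024 by limma, and 0.076 without 0 h replicate 1) and ENST00000550595, at 0.081% ± 0.053 and 0.0053% ± 0.0093 (adjusted p = 0.047 by limma, 0.15 without 0 h replicate 1, and 0.061 with the replicate number as a block). Both were small beside the main models of HSP90B1, of 2858 bases (61.6% at 0 h, 68.9% at 24 h) and 2749 bases (31.8% and 25.5%).

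No transcript of the other members passed the usage test. ERO1L consisted mainly of a model of 2058 bases (60.1% ± 2.32 at 0 h, 54.4% ± 6.86 at 24 h, SD, n = 3) and one of 5285 bases (35.3% ± 1.12 and 40.0% ± 4.81), both with the nearest reference ENST00000395686 (adjusted p = 0.48 and 0.47 by limma). Both rose in level, from 29.8 to 92.7 and from 17.6 to 72.2 mean FPKM. HSPA5 had a single model, and single models made up 99.7% of SDF2L1, 95.3% of DNAJB9, 81.0% of HERPUD1 and 65.3% of ERN1 at 0 h. The shares of EIF2AK3 scattered widely, with ENST00000419748 between 26.9% and 54.2% at 0 h and between 0% and 28.5% at 24 h (adjusted p = 0.12 by limma, and 0.041 with diffSplice). The model matching ENST00000303236, typed as protein coding, held 24.3% to 44.1% at 0 h and 47.0% to 48.3% at 24 h (adjusted p = 0.57 by limma). ENST00000415570, typed without a defined coding sequence, averaged 9.51% at 0 h and 18.2% at 24 h. ENST00000477083 averaged 6.33% and 10.7%.

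**Figure D5:**
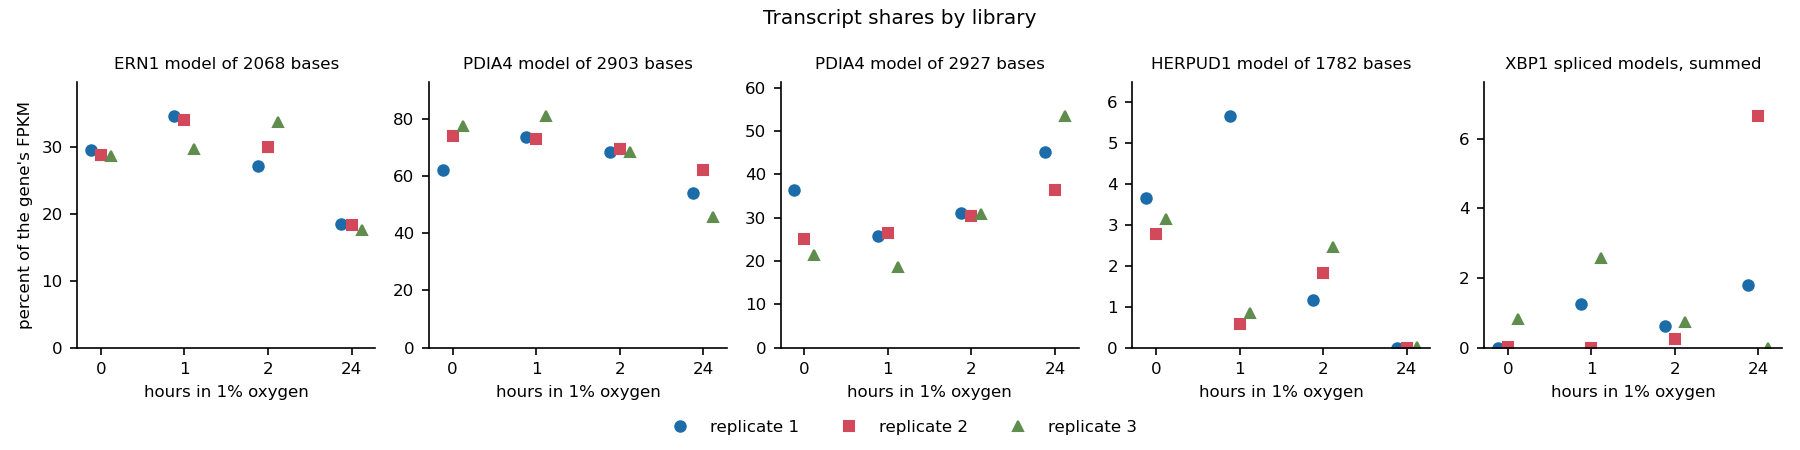
Share of a gene's summed FPKM taken by a transcript model (vertical axis, percent) against hours in 1% oxygen, with 1 symbol per library. The ERN1 model of 2068 bases lies between 17.6% and 18.6% at 24 h, below all other libraries, while the XBP1 spliced models range from near 0 to 6.64% at 24 h.

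The libraries were alike in scale, with median ratios of 0.967 to 1.02 to a common reference and correlations within groups, across genes, of 0.965 to 0.988 on the log2 scale. The largest number of names more than 2-fold apart within a group was 996, between replicates 1 and 3 of 24 h. The FPKM summed over all models ranged from 1534760 to 5258190, of which 57.0% to 87.6% came from models under 300 bases, so that scaling each library to a common sum took the median log2 change of all names at 24 h from -0.05 to -0.78. Relative to that median ERO1L was at 1.66 and SDF2L1 at -1.30. The epithelial markers EPCAM, KRT8 and KRT18 were high in every library, PECAM1 was listed at 0 in all and PTPRC in 11 of 12. The epithelial cadherin CDH1 rose by 1.76 and the collagen gene COL1A1 by 1.59 at 24 h, the latter from 1.79 to 2.16 FPKM at 0 h to 5.75 to 8.79, and their part in the results above was not tested.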

How the data were processed

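Poly(A) RNA of 12 HCT116 cultures was sequenced strand-specifically as paired reads. According to the study's methods and the labels, the authors aligned the reads to hg19 (GRCh37), assembled transcript models with Cufflinks, combined these with Ensembl's and deposited FPKM per transcript and library; CASAVA 1.8.2 is named in the submitters' processing notes. FPKM holds no counts, so the depth behind a value is unknown.

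Here FPKM of models with class code = or j was summed per gene name, and names with FPKM above 0.5 in at least 3 libraries were kept. limma 3.58.1 in R 4.3.3 (lmFit, eBayes with trend) was fitted to log2(FPKM + 0.5) over all 12 libraries; fold changes understate those of low genes. All p are two-sided, and they measure the spread between these libraries. A call needed a fold over 2 and an adjusted p under 0.01; usage needed an adjusted p under 0.05. All 10 members are named; of each other list, up to 4 rises and 3 falls among the calls at 24 h, or else the largest change. Members and lists were chosen with earlier results of these data known. RTCB was first put on its list under an older symbol and was matched in the data as RTCB. The steps were tested on simulated data. Alternatives comprised pseudocounts, filters, scalings, class codes, sums by locus, samples in the fit, a replicate block and other thresholds. Each library of the 2 groups compared was also left out in turn. A change of sign counted as a reversal where either value had an unadjusted p under 0.05. Promoters came from RefSeq (GRCh38.p14), and transcript types and the XBP1 site from GENCODE release 44 lifted to GRCh37. Proteins were not used here. Figures were drawn with matplotlib 3.10.9.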

Additional observations from a re-analysis of the deposited data

Results flagged for a closer look

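The change at 24 h differed from that at 2 h, by the test of the difference itself (limma, 24 h against 2 h), for 2 of the 10 genes at a fold over 2 and an adjusted p under 0.01, where 7.44% of all names were called higher and 7.28% lower. EIF2AK3 (0.64, adjusted p = 0.00043) and HERPUD1 (0.90, adjusted p = 0.027) also had an adjusted p under 0.05 by limma, at a fold under 2. For ERO1L the log2 difference was 1.37 ± 0.19 (SE, adjusted p = 0.00010), with all 3 libraries of 24 h above all 3 of 2 h. For SDF2L1 it was -1.17 ± 0.13 (SE, adjusted p = 1.6e-05), with all 3 libraries of 24 h below all 3 of 2 h. With TPM both calls were lost, at 1.57 for ERO1L (adjusted p = 0.015 by limma) and -0.93 for SDF2L1 (adjusted p = 0.22). Both comparisons with 0 h share its libraries. Single outlying libraries were not tested in these groups of 3.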

How the results depend on the processing

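The calls of ERO1L and SDF2L1 at 24 h against 0 h held in every alternative run, except that scaling to a sum of 1000000 over all models (TPM) lost ERO1L (0.88, adjusted p = 0.10 by limma). The members called at 24 h numbered 1 with TPM against 0 h and 0 against 2 h (28.9% and 4.34% of all names); 5 and 4 at an adjusted p under 0.05 alone (55.3% and 50.6%); 7 and 5 when 24 h replicate 1 was also left out, a setting added after the data were seen (53.6% and 47.9%); and 2 to 3 in both comparisons when 1 library was left out. None was called at 1 h or 2 h (0 to 0 without 1 library). With TPM, 4 member changes turned sign at 1 h, 5 at 2 h, 3 at 24 h against 0 h and 2 at 24 h against 2 h, but only 0, 1, 0 and 2 of them relative to the median of all names. Those with an unadjusted p under 0.05 on either scale were at 2 h HSP90B1 (-0.98), DNAJB9 (-0.35) and EIF2AK3 (-0.59), and at 24 h ERN1 (-0.25), where TPM put the median of all names at -0.94 at 2 h and -0.78 at 24 h. HSPA5 turned to 0.29 against 2 h (-0.05 with all libraries) and 0.09 against 0 h without 24 h replicate 1. With models of class code = alone, HSP90B1 (0.43, adjusted p = 0.034) came under an adjusted p of 0.05, as did PDIA4, and ERN1 rose over it (0.45, adjusted p = 0.068). EIF2AK3 passed both thresholds with a pseudocount of 0.1 (1.02).

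Over all names, 1 was called at 1 h (28 with TPM, 0 with no gene filter, 0 with only the 6 libraries compared, 0 to 1 without 1 library) and 3 at 2 h (6 with a pseudocount of 0.1, 540 with TPM, 5 with transcripts past the filter only, 52 at an adjusted p under 0.05 alone, 0 with no gene filter or only the 6 libraries, 0 to 6 without 1 library). At 24 h, 3048 were called against 0 h and 2456 against 2 h; an adjusted p under 0.05 alone gave 9228 and 8435, and 8947 and 7992 without 24 h replicate 1; TPM gave 630 against 2 h; leaving out 1 library gave 2686 to 3236 and 2116 to 2742. Of calls at 24 h against 0 h 48% were higher, but 4.97% with TPM; against 2 h 50.5%, but 86.5% with TPM. At 1 h and 2 h 100% were higher, but 32.1% and 2.59% with TPM. Member transcripts with changed usage (5) numbered 3 with a pseudocount of 0.1, 3 with a transcript filter of FPKM above 1, 14 with no filter and 1 to 4 without 1 library. The cause of these shifts was not tested.

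Libraries with the same replicate number correlated in their deviations from the group means by more than 0.1 in all 3 pairs of 0 h with 2 h (0.13 to 0.36) and of 1 h with 2 h (0.12 to 0.43, times not compared here), but not in all pairs of 0 h with 1 h (0.095 to 0.34), of 0 h with 24 h (-0.00078 to 0.24), of 2 h with 24 h (-0.0032 to 0.13) or of 1 h with 24 h (-0.083 to 0.026). No source says what the numbers share. Of the comparisons made, they were taken as a possible pairing for 2 h against 0 h alone, where the block called 4 names and no member. The block was fitted over all 12 libraries with a common effect per replicate number. It is therefore not a paired test of 2 h against 0 h. The values given above for single members at 2 h come from the fit without the block. With the replicate number as a block, 0 names were called at 1 h and 3 member transcripts had changed usage, those of PDIA4 (2903 bases) and HSP90B1 (ENST00000550595) being lost; no call of a member gene changed.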
